A study of Homo sapiens with 6 samples.

Results

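The genes of the DNA replication machinery and of deoxynucleotide supply were examined in HGC-27 cells, an undifferentiated human gastric cancer line, after knockdown of ACAT2, a cytosolic acetyl-CoA acetyltransferase of the mevalonate pathway. The 51 genes were taken by symbol from a table of 58735 genes and were grouped into 13 complexes or steps, from origin recognition to chromatin assembly. The study made 3 libraries named shACAT2-1 to shACAT2-3 and 3 named shNC-1 to shNC-3. The labels give the genotype as WT for shNC and as ACAT2 knockdown for shACAT2, and cells of both groups received a pSIH-H1-Puro vector for 24 h and then puromycin selection for 7 days. The vector of the shACAT2 group carried a short hairpin RNA against ACAT2. That of the shNC group is given as shNC in the sample labels and as an empty vector in the study's methods. Both groups thus share the vector backbone and the drug. Which ACAT2 hairpin was used was not given in the sources used here, and neither was whether libraries of a group came from separate cultures, so n counts libraries and the tests measure the spread between them.

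Replication starts at origins that are licensed before S phase. The origin recognition complex (ORC), with CDC6 and CDT1, loads the MCM2-7 ring onto DNA, and geminin (GMNN) blocks further loading by binding CDT1. The kinase CDC7-DBF4 then allows CDC45 and GINS to join the ring and form the active helicase, after which polymerase alpha-primase lays primers, polymerase epsilon copies the leading strand and polymerase delta the lagging strand, both held by the sliding clamp PCNA. In proliferating cells most of these genes are transcribed in a wave at the G1/S border under E2F factors. In bulk libraries fewer cells in S phase and less RNA per cell cannot be told apart.

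Promoter sequences from 250 bases before to 50 bases after the start were taken from RefSeq (GRCh38.p14) for 44 of the 51 genes. RPA2, POLD3, MCM5, MCM4, GINS4, RPA3 and ATAD2 were not matched in the table. An E2F core, here TT followed by CC, CG, GC or GG and then by CGC, on either strand, stood in at least 1 promoter given for 33 of 44 genes (75%), against 15.3% of the 27305 genes of the table with a promoter, counted alike. The CCAAT box, the core bound by NF-Y, stood in 26 of 44 (59.1%), against 39.7% over all genes. Both were present for 47.7% of the replication genes and 6.61% of all. Among 36 other replication genes with a promoter in the table, 41.7% held the E2F core, 61.1% the CCAAT box and 19.4% both. A match is a description of the letters in the window and not a site in use. The promoters of PCNA and POLE are shown because these were the genes of the list that passed the test below. They lie on the minus strand at chr20:5126573-5126872 and chr12:132687293-132687592. Capitals mark the E2F core and CCAAT matches on either strand, which overlap each other in POLE.
PCNA: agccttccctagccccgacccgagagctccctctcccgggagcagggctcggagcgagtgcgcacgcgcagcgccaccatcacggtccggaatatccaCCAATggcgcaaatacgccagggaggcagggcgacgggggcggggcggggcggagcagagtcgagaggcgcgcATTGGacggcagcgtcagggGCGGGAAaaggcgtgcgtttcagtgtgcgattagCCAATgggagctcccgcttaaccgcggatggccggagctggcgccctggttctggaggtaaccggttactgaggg
POLE: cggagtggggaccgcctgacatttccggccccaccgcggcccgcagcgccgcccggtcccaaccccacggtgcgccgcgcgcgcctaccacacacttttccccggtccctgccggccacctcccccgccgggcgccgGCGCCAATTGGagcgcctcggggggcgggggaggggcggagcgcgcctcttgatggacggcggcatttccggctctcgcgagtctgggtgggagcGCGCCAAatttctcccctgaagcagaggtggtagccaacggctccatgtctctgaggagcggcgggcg
PCNA carried 1 E2F core, with its first base at −59 from the start, between CCAAT boxes at −152, −79 and −25. POLE carried 2 E2F cores, at −113 and −18, and CCAAT matches at −110 and −107, which read the same bases on opposite strands in part. The PCNA sequence is 1 of 2 promoters given for the gene. The start used by these cells was not measured.

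The libraries held 14086416 to 16067486 fragments on genes. ACAT2 (chromosome 6), the targeted gene, was measured at 14.2, 11.7 and 12.7 FPKM (fragments per kilobase of exon, scaled to sequencing depth) in replicates 1 to 3 of shNC and at 6.19, 5.46 and 6.05 FPKM in those of shACAT2. Its mean level fell from 12.9 ± 1.25 to 5.90 ± 0.388 FPKM (SD, n = 3), a log2 fold change of −1.01 (SE 0.10, limma adjusted p = 0.00594; 0.0512 without shNC-3). On the opposite strand, 33.9% of its exon bases also belong to SOD2-OT1, 26.5% to SOD2 and 9.2% to TCP1, and the strand setting of the counting was not given. SOD2-OT1 was listed at 0 and SOD2 at no more than 0.0521 FPKM in the libraries, and TCP1 at 66.8 to 69.6 FPKM in shNC and 85.6 to 93.8 FPKM in shACAT2. shNC-2 and shNC-3 were far closer to each other than the other libraries of a group, with a chi-square of 1.749 per gene against 13.7 to 52.34 in the other pairs. shACAT2-3 stood apart in that 7477 genes had a fragment in it alone, against 416 to 657 in the other libraries. None of the 9 gastric epithelial markers checked reached a mean of 1 FPKM, with TFF1 and GKN1 listed at 0 in every library. The summed level of the 9 was 0.894 to 1.22 FPKM in shNC and 1.62 to 2.59 in shACAT2. Among them CDH1 was at 0.120 to 0.222 FPKM in shNC and 0.608 to 1.15 FPKM in shACAT2, without overlap. The groups overlapped for EPCAM, KRT8, KRT18, KRT19, CLDN18 and MUC5AC. The summed level of 5 fibroblast markers was 102 to 107 FPKM in shNC and 179 to 201 FPKM in shACAT2. Most of it came from COL1A1 (57.9 to 67.0 against 108 to 139 FPKM) and LUM (27.7 to 33.5 against 43.1 to 53.9 FPKM). COL1A2 and DCN were also higher in each shACAT2 library, and PDGFRB overlapped between the groups at no more than 1.12 FPKM. VIM, a mesenchymal marker, was at 246 to 292 against 340 to 461 FPKM, whereas CDH2 was at most 0.0808 FPKM and ZEB1 overlapped between the groups (3.66 to 5.44 against 3.66 to 6.51 FPKM). Endothelial markers summed to at most 0.373 FPKM, immune markers to 0.918 to 1.28 FPKM over the 6 libraries, and erythroid markers to 1.87 to 2.68 FPKM apart from 7.67 FPKM in shNC-1. The part of these differences in the values below was not tested.

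The 51 genes were all expressed, with shNC means from 1.91 FPKM for ORC4 to 247 FPKM for ATAD2. After ACAT2 knockdown most differed little. The log2 fold change of FPKM + 1, shACAT2 against shNC, was below 0 for 37 of the 51 (72.5%) and above 0 for 14, with a median of −0.13, whereas over the 13832 genes tested, whose average reached 1 FPKM in a group, 47.7% were below 0 and the median was 0.02. In limma with Benjamini-Hochberg adjustment over all 13832 genes, 2 of the 51 passed an adjusted p of 0.05 (3.92%), PCNA upward and POLE downward, and 5.10% of all genes passed (3.30% upward, 1.81% downward). The share of called replication genes was not above that of all genes. A block by replicate number was also fitted, since same-numbered libraries deviated together, over all genes clearly only for replicate 1. With it 5 passed (9.80%, against 12.5% of all genes, 7.67% upward and 4.81% downward). MCM2, LIG1 and RFC1 joined the others, on the lower side. The sign split depended on scaling, since 43 of the 51 were lower with upper-quartile scaling and 42 with scaling to library size, while the share of all genes below 0 went to 54.5% and 53.8%.

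**Figure D1:**
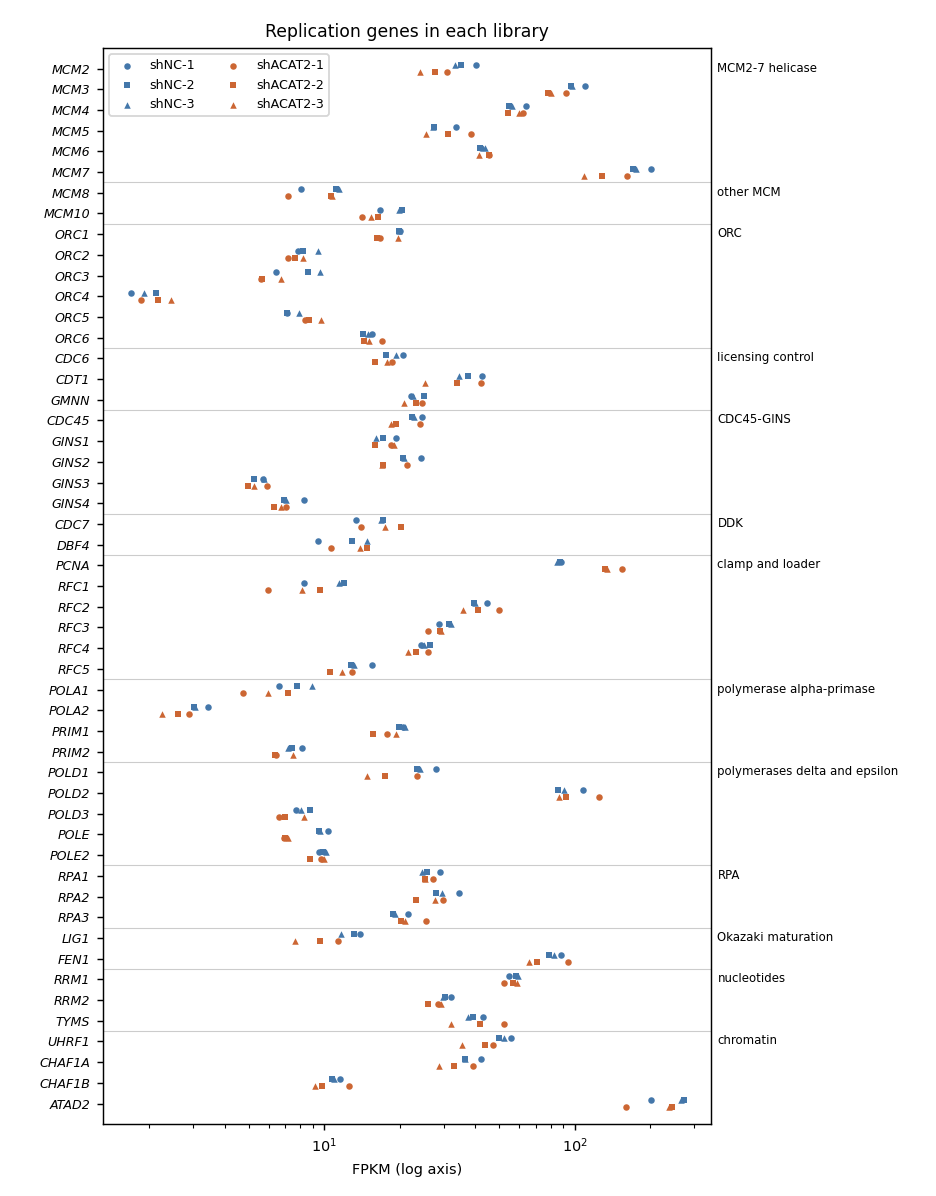
FPKM on a log axis for the 51 replication genes, by complex, in the 3 shNC (blue) and 3 shACAT2 (orange) libraries, with a marker shape for each replicate number. The groups stand fully apart for 13 genes (25.5%, against 30.7% of all genes), among them PCNA to the right and POLE to the left, and for most genes the points of the groups mix.

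Groups that did not overlap were found for 11 genes on the lower side, MCM2, MCM3, MCM7, MCM10, ORC1, POLA2, PRIM1, POLE, LIG1, RRM2 and UHRF1 (21.6%, against 14.5% of all genes), and for PCNA and ORC5 on the higher side (3.92%, against 16.2%). By replicate number, 28 genes were lower in shACAT2 in 3 of 3 pairs (54.9%, against 27.1% of all genes) and 6 were higher in 3 of 3 (11.8%, against 30.1%). The median difference was −0.12 in replicate 1, −0.14 in replicate 2 and −0.12 in replicate 3, with 33, 39 and 40 of the 51 genes lower.

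**Figure D2:**
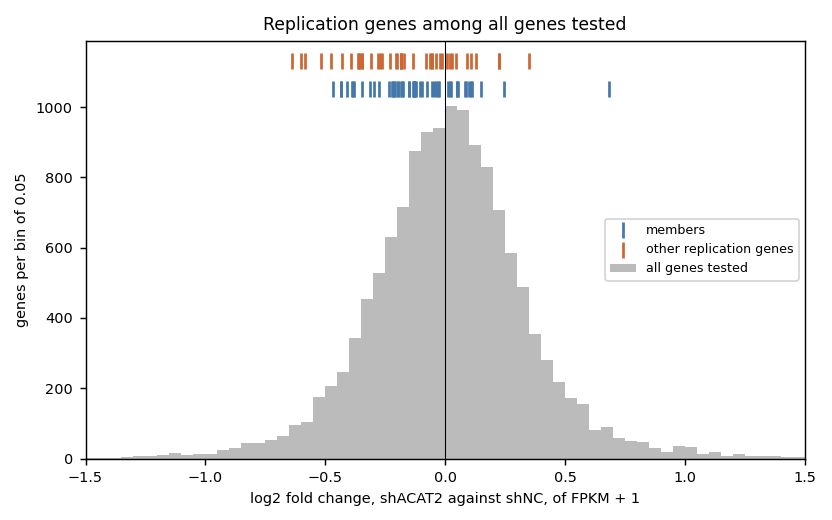
Histogram of the log2 fold change (x axis, FPKM + 1, shACAT2 against shNC) of the 13832 genes tested, with the count of genes per bin on the y axis, and ticks above it for the 51 replication genes (blue) and 41 other replication genes (orange). The ticks lie mostly left of 0 within the bulk of all genes, and PCNA is the isolated tick at 0.68.

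PCNA, the ring that tethers polymerases to DNA, was the gene of the list with the largest change. Its level was 88.3, 87.5 and 85.3 FPKM in the shNC libraries (replicates 1 to 3) and 155, 133 and 135 FPKM in the shACAT2 libraries, so each knockdown library was above each control. Its average rose from 87.0 ± 1.57 to 141 ± 12.3 FPKM (SD, n = 3), by 61.6%, with a log2 fold change of 0.68 (SE 0.11, 95% interval 0.43 to 0.94, limma adjusted p = 0.0208). The difference was 0.80, 0.59 and 0.65 in replicates 1 to 3. Each value rested on 1988 to 3456 fragments, and its pseudogenes PCNAP1, PCNAP3 and PCNAP4 held at most 1 fragment in any library. The exact two-sided permutation test gave p = 0.1, the smallest that 3 against 3 libraries allow. The call was lost without shNC-1 (limma adjusted p = 0.0827), shNC-2 (0.129), shNC-3 (0.136) or shACAT2-2 (0.0746), while the log2 fold change stayed between 0.61 and 0.72.

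The clamp loader, replication factor C, opens the PCNA ring and places it at primer ends, and none of its subunits passed the test upward. RFC1, the large subunit, was at 8.28, 12.0 and 11.5 FPKM in shNC and 5.97, 9.62 and 8.18 FPKM in shACAT2. The groups overlapped, and its log2 fold change was −0.38 (SE 0.19, limma adjusted p = 0.291), which passed with the replicate block (0.0364). Its differences by replicate number were −0.41, −0.29 and −0.44. The small subunits RFC2 to RFC5 had log2 fold changes of 0.02, −0.13, −0.10 and −0.21, none of which passed, and that of RFC2 turned below 0 with upper-quartile (−0.04) and library-size scaling (−0.03). PCNA was also divided by each RFC subunit, because a ratio within a library does not depend on scaling. This choice was made after the gene values had been seen. Over all pairs of the 13365 genes tested with a value above 0 in every library, 32.9% of ratios had groups that did not overlap. PCNA/RFC4 was 3.63, 3.30 and 3.40 in shNC and 5.99, 5.70 and 6.26 in shACAT2, and PCNA/RFC5 was 5.70, 6.85 and 6.51 against 11.9, 12.6 and 11.4. The ratio of PCNA to each of the 5 subunits was higher in every shACAT2 library than in every shNC library, by 59.3% for RFC2 to 121% for RFC1 (exact permutation p = 0.1 for each). These 5 ratios share PCNA, and they were the 5 of the 15 clamp and loader ratios that did not overlap (33.3%).

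POLE, the catalytic subunit of the leading-strand polymerase epsilon, was measured at 10.4, 9.50 and 9.60 FPKM in shNC and at 6.91, 6.94 and 7.15 FPKM in shACAT2. The groups stood apart, and the shACAT2 libraries lay close together. Its average fell from 9.82 ± 0.466 to 7.00 ± 0.127 FPKM (SD, n = 3), with a log2 fold change of −0.43 (SE 0.08, 95% interval −0.63 to −0.24, limma adjusted p = 0.0348) and differences of −0.52, −0.40 and −0.38 by replicate number. The call was lost without shNC-1 (limma adjusted p = 0.115), shNC-2 (0.154), shNC-3 (0.163), shACAT2-2 (0.127) or shACAT2-3 (0.0576), with the log2 fold change between −0.46 and −0.40. POLE2, its accessory subunit, was at 9.49, 9.87 and 10.2 FPKM in shNC and 9.67, 8.76 and 9.95 FPKM in shACAT2, with overlapping groups and a log2 fold change of −0.05 (95% interval −0.27 to 0.16). With a GC content of 43.7% for POLE2 and 55.6% for POLE, POLE2/POLE within a library was 0.916, 1.040 and 1.06 in shNC and 1.40, 1.26 and 1.39 in shACAT2, a ratio that restates the values of these genes.

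No subunit of polymerase delta, which copies the lagging strand, passed the test. POLD1, the catalytic subunit, was at 28.0, 23.3 and 24.1 FPKM in shNC and 23.5, 17.4 and 14.9 FPKM in shACAT2. The groups touched, since shACAT2-1 lay above shNC-2, and the log2 fold change was −0.44 (SE 0.17, limma adjusted p = 0.19), with an adjusted p of 0.0419 without shACAT2-1. POLD2, an accessory subunit, was at 107, 85.7 and 90.9 FPKM against 124, 92.2 and 86.4 FPKM, with a log2 fold change of 0.08 (SE 0.17) whose sign changed when shACAT2-1 was left out. POLD2/POLD1 was 3.84, 3.67 and 3.77 in shNC and 5.30, 5.29 and 5.82 in shACAT2, 45.4% higher in the mean. POLD1/POLD3 and POLD2/POLD3 overlapped between the groups. Of the 10 ratios among delta and epsilon subunits, 4 did not overlap (40.0%, against 32.9% of all pairs of genes above 0 in every library). POLD3, the other delta subunit of the list, had a log2 fold change of −0.15 (limma adjusted p = 0.453).

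The 6 subunits of the MCM2-7 ring, the core of the replicative helicase, divided into 3 with lower means and 3 with means near those of the control. MCM2 was at 40.3, 35.1 and 33.4 FPKM in shNC and 31.0, 27.8 and 24.0 FPKM in shACAT2, and MCM7, the most abundant of the ring, at 201, 171 and 175 against 161, 129 and 109 FPKM. MCM3 was at 110, 96.9 and 97.4 against 92.4, 78.1 and 80.3 FPKM. In these 3 genes the groups did not overlap, with log2 fold changes of −0.39 for MCM2, −0.28 for MCM3 and −0.47 for MCM7, but none passed the test (limma adjusted p = 0.142, 0.214 and 0.151). MCM2 passed with the replicate block (0.0359), and MCM7 did not (0.0501). MCM2 and MCM7 passed with upper-quartile scaling (0.0455 and 0.0472), and MCM7 also without shACAT2-1 (0.045).

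MCM4, MCM5 and MCM6 had overlapping groups and log2 fold changes of 0.01, 0.10 and 0.05, with 95% intervals from −0.26 to 0.28, −0.30 to 0.50 and −0.18 to 0.28. The signs of MCM4 and MCM6 turned with upper-quartile and library-size scaling, and those of MCM4 and MCM5 when a single library was left out. MCM5 was at 33.5, 27.4 and 27.2 FPKM in shNC and 38.6, 31.3 and 25.5 FPKM in shACAT2, so the order of the groups differed between replicates 1 and 2 and replicate 3. The subunits were also compared by ratio within a library. MCM7/MCM5 was 6.0, 6.25 and 6.43 in shNC and 4.19, 4.12 and 4.26 in shACAT2, a change of −32.8% in the mean, and MCM2/MCM5 was 1.2, 1.28 and 1.23 against 0.804, 0.886 and 0.940. The GC content of the longest transcript, with which deviations between libraries went, was 58.1% for MCM2, 51.6% for MCM3, 48.5% for MCM4, 57.0% for MCM5, 43.1% for MCM6 and 57.6% for MCM7, and its part in these ratios was not tested. MCM7/MCM4 was 3.16, 3.14 and 3.13 in shNC and 2.61, 2.39 and 1.82 in shACAT2.

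Of the 15 ratios between MCM2-7 subunits, 10 had groups that did not overlap (exact permutation p = 0.1 for each), and these included the 9 between MCM2, MCM3 or MCM7 and MCM4, MCM5 or MCM6. The remaining ratio that did not overlap was MCM7/MCM3 (−11.9% in the mean), within the set with lower means. The ratios among MCM4, MCM5 and MCM6 all overlapped. These ratios share genes, and they restate the values by which the subunits were divided above. Over the pairs within a complex, 32 of 89 ratios did not overlap (36.0%). The share was 28.2% of the 1275 pairs of replication genes and 32.9% of all pairs of genes above 0 in every library. Pairs of a complex as a whole were thus near the background. The ratios were chosen after the gene values had been seen. MCM7 shares 8.9% of its exon bases with AP4M1 and MCM2 22.7% with an antisense gene listed below 0.25 FPKM, both on the opposite strand.

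MCM8 and MCM10 lie outside the ring. MCM10, which helps activate the helicase at origins, was at 16.7, 20.5 and 19.9 FPKM in shNC and 14.2, 16.3 and 15.4 FPKM in shACAT2, without overlap, for a log2 fold change of −0.29 (SE 0.12, limma adjusted p = 0.182). MCM8, which acts in a helicase with MCM9 in recombination repair, was at 8.04, 11.1 and 11.5 against 7.18, 10.6 and 10.7 FPKM. In MCM8 the first replicate was low in both groups, and the log2 fold change was −0.10 (SE 0.19).

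The 6 ORC subunits, which mark origins, divided evenly, with 3 below and 3 above 0 and a median log2 fold change of −0.04. ORC1, the subunit whose level changes through the cell cycle, was at 20, 19.9 and 19.9 FPKM in shNC and at 16.7, 16.2 and 19.7 FPKM in shACAT2. The groups did not overlap, though shACAT2-3 lay just below the controls, and the log2 fold change was −0.18 (SE 0.10, limma adjusted p = 0.345). ORC5 was the subunit with the highest log2 fold change, 0.25 (SE 0.10, limma adjusted p = 0.186), from 7.11, 7.07 and 7.93 to 8.35, 8.72 and 9.72 FPKM without overlap. ORC3 had the lowest, −0.39 (SE 0.15, limma adjusted p = 0.18), from 6.43, 8.63 and 9.59 to 5.59, 5.64 and 6.72 FPKM with overlap between shNC-1 and shACAT2-3. Within a library ORC5/ORC3 was 1.11, 0.820 and 0.827 in shNC and 1.49, 1.546 and 1.45 in shACAT2. This ratio of the highest to the lowest subunit restates their values. Of the 15 ORC ratios 6 did not overlap (40.0%, against 32.9% of all pairs of genes above 0 in every library). ORC2, ORC4 and ORC6 had log2 fold changes of −0.13, 0.11 and 0.05, and that of ORC6 turned to −0.0036 with upper-quartile scaling.

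None of the licensing factors passed the test. CDC6, the loader of the MCM ring, was at 20.7, 17.7 and 19.3 FPKM in shNC and 18.6, 16 and 17.8 FPKM in shACAT2, with a log2 fold change of −0.13 (limma adjusted p = 0.514) and differences of −0.14, −0.14 and −0.11 by replicate number. CDT1, its partner in loading, was at 42.5, 37.4 and 34.4 against 42.1, 33.8 and 25.2 FPKM, with a log2 fold change of −0.20 (limma adjusted p = 0.589) that went to −0.01 when shACAT2-3 was left out. GMNN, the inhibitor of CDT1, was at 22.1, 25.1 and 22.5 against 24.4, 23.2 and 20.8 FPKM, with a log2 fold change of −0.03 (95% interval −0.28 to 0.23). For all 3 genes the groups overlapped, and CDC6 and CDT1 were lower in each replicate pair.

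CDC45 and the 4 GINS subunits turn the loaded ring into a moving helicase. CDC45 was at 24.5, 22.5 and 22.7 FPKM in shNC and 24.0, 19.3 and 18.4 FPKM in shACAT2, with a log2 fold change of −0.18 (limma adjusted p = 0.444). GINS2 had the lowest value, −0.24 (limma adjusted p = 0.317), from 24.4, 20.5 and 20.9 to 21.3, 17.2 and 17.1 FPKM. GINS1 had the highest, 0.03, from 19.4, 17.1 and 16 to 18.5, 16 and 19.0 FPKM, with a sign that turned with upper-quartile and library-size scaling. GINS3 and GINS4 were at −0.05 and −0.12, and in all 5 genes the groups overlapped. The kinase that starts the step had values above 0 in both subunits, with log2 fold changes of 0.11 for CDC7 and 0.09 for its activator DBF4, which were within the spread between libraries. CDC7 was at 13.4, 17.1 and 16.9 FPKM in shNC and 14.0, 20.2 and 17.4 FPKM in shACAT2, and DBF4 at 9.41, 12.9 and 14.7 against 10.6, 14.8 and 13.9 FPKM. The first replicate was lowest in both groups for both genes.

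All 4 subunits of polymerase alpha-primase, the enzyme that makes primers, had log2 fold changes below 0, with a median of −0.22, though none passed the test. POLA1, the catalytic polymerase subunit, was at 6.60, 7.79 and 8.96 FPKM in shNC and 4.72, 7.13 and 5.96 FPKM in shACAT2, with overlap and a log2 fold change of −0.35 (SE 0.16, limma adjusted p = 0.248). POLA2, the regulatory subunit, was at 3.43, 3.02 and 3.06 against 2.89, 2.61 and 2.25 FPKM, and PRIM1, the catalytic primase subunit, at 20.6, 19.8 and 20.9 against 17.8, 15.7 and 19.4 FPKM. In these 2 genes the groups did not overlap, and the log2 fold changes were −0.22 and −0.21 (limma adjusted p = 0.261 and 0.295). PRIM2, the large primase subunit, was at 8.16, 7.43 and 7.16 against 6.39, 6.33 and 7.51 FPKM, with a log2 fold change of −0.15. POLA2 shares 35.1% of its exon bases with another annotated gene on the same strand.

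Replication protein A, which coats single-stranded DNA, had mixed values. RPA2 was at 34.6, 28.0 and 29.4 FPKM in shNC and 29.8, 23.3 and 27.7 FPKM in shACAT2 (log2 fold change −0.18), and RPA3 at 21.7, 18.9 and 19.1 against 25.4, 20.2 and 21.0 FPKM (0.15), both with overlap. RPA1, the large subunit, was at −0.03 (95% interval −0.28 to 0.22). RPA2/RPA3 was 1.6, 1.48 and 1.54 in shNC and 1.18, 1.15 and 1.32 in shACAT2. Of the 3 RPA ratios 2 did not overlap (66.7%, against 32.9% of all pairs of genes above 0 in every library), a share from few pairs.

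LIG1 and FEN1 mature Okazaki fragments, FEN1 by cutting the displaced flap and LIG1 by sealing the nick. LIG1 was at 13.9, 13.1 and 11.7 FPKM in shNC and 11.4, 9.63 and 7.62 FPKM in shACAT2, without overlap, with a log2 fold change of −0.41 (SE 0.15, limma adjusted p = 0.16), which passed with the replicate block (0.0443). FEN1 was at 88.1, 78.8 and 82.2 against 93.5, 70.8 and 65.4 FPKM, with a log2 fold change of −0.13 (SE 0.15). FEN1/LIG1 was 6.34, 6.02 and 7.06 in shNC and 8.23, 7.36 and 8.58 in shACAT2. It is the only pair of this step and restates the values of these genes.

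The 3 genes of this step in the list, RRM1, RRM2 and TYMS, make deoxynucleotides. Their log2 fold changes lay between −0.14 and 0.05, and none passed the test. RRM1, the large subunit of ribonucleotide reductase, was at 54.6, 58.5 and 59.2 FPKM in shNC and 52.2, 56.5 and 59.0 FPKM in shACAT2, a log2 fold change of −0.04 (95% interval −0.28 to 0.20). RRM2, the S-phase subunit, was at 32.0, 30.5 and 29.9 against 28.5, 26.0 and 29.3 FPKM, a log2 fold change of −0.14 (95% interval −0.37 to 0.10, limma adjusted p = 0.454) with groups that did not overlap. TYMS, thymidylate synthase, was at 43.0, 39.4 and 37.5 against 52.4, 41.8 and 32.1 FPKM. Its shACAT2 libraries lay on both sides of the controls, the log2 fold change was 0.05 (95% interval −0.38 to 0.47), and the sign turned with upper-quartile and library-size scaling. Of the exon bases of TYMS, 39.1% also belong to ENOSF1 on the opposite strand, which was listed at 9.48 to 11.7 FPKM.

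The chromatin genes act behind the fork. UHRF1, which carries DNA methylation to the new strand with DNMT1, was at 55.4, 49.9 and 52.0 FPKM in shNC and 47.3, 43.9 and 35.5 FPKM in shACAT2, without overlap, with a log2 fold change of −0.31 (SE 0.13, limma adjusted p = 0.212). CHAF1A and CHAF1B, the large and middle subunits of the histone chaperone CAF-1, had log2 fold changes of −0.20 and −0.08. CHAF1B was at 11.6, 10.7 and 10.9 against 12.6, 9.82 and 9.21 FPKM, with overlap. ATAD2, a bromodomain ATPase and the most abundant gene of the list, was at 202, 272 and 266 against 161, 244 and 237 FPKM. The first replicate was again the lowest in both groups, and the log2 fold change of −0.22 (SE 0.20) was within the spread.

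Libraries of the same replicate number deviated together in these genes, most of all in replicate 1. The deviations of the 51 genes from their group means correlated across genes between the shNC and shACAT2 libraries of the same number, with r = 0.86 in replicate 1, 0.70 in replicate 2 and 0.58 in replicate 3 (0.44, 0.13 and 0.17 over all genes tested). These are correlations across genes, which are not independent replicates. Over all genes tested, shNC-2 correlated more with shACAT2-3 (0.20) than with shACAT2-2, and shNC-3 correlated with shACAT2-2 at 0.14. Only replicate 1 thus stood apart from the other numbers. Correlations between different numbers were not computed for the 51 genes. shNC-1 held the highest value of its group in 31 of the 51 genes (60.8%, against 52.4% of all genes tested). shACAT2-1 did so in 30 (58.8%, against 49.9%). The deviations went with the GC content of the longest transcript, at r = 0.69 in shNC-1 and 0.76 in shACAT2-1 (0.41 and 0.55 over all genes). The sign was opposite in shACAT2-3 (−0.81, and −0.48 over all genes), shNC-2 (−0.565 and −0.24), shNC-3 (−0.64 and −0.25) and, more weakly, shACAT2-2 (−0.22 and −0.13). For the log2 fold change between groups the correlation with GC content was −0.31 over the 51 genes and −0.03 over all genes, and its part in the values above was not tested. The spread between libraries was larger in shACAT2 than in shNC for 41 of the 51 genes, and for 10283 of the 13832 genes tested.

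The change of the genes was also read by promoter. Among the 33 genes with the core 27 were lower, with a median log2 fold change of −0.14. Among the 11 without it 6 were lower, with a median of −0.13. Over all genes tested 47.7% were lower. The difference between the 33 and the 11 was not tested, and sign counts moved with scaling. PCNA and POLE, with opposite changes, both held it, as shown in the sequences above.

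Of 44 other genes of replication and nucleotide supply, 41 passed the filter on low values, and POLD4, MCM9 and RNASEH2A did not. The median log2 fold change of the 41 was −0.18 and 31 were below 0 (75.6%, against 47.7% of all genes). In limma 2 passed (4.88%, against 5.10% of all genes), both downward, and with the replicate block 11 passed (26.8%, against 12.5%), 10 of them downward. TIMELESS, a fork protection protein, was at 45.4, 39.4 and 40.6 FPKM in shNC and fell to 27.7, 26.1 and 25.5 FPKM in shACAT2, a log2 fold change of −0.64 (SE 0.10, limma adjusted p = 0.022). SAMHD1, which breaks down deoxynucleotides, was at 3.72, 3.61 and 3.85 FPKM and fell to 2.36, 2.44 and 2.38 FPKM, a log2 fold change of −0.48 (SE 0.08, limma adjusted p = 0.0271). Both groups stood clear of each other in these 2 genes. Leaving out a library raised the adjusted p to at most 0.12 for TIMELESS and 0.155 for SAMHD1. The 10 that passed downward with the block were, beside TIMELESS and SAMHD1, the checkpoint mediator CLSPN, the origin-firing factors TICRR and MTBP, the kinase activator DBF4B, the histone chaperones ASF1B and NASP, the nuclease DNA2 and the dUTPase DUT, and the histone chaperone ASF1A passed upward. These names beyond TIMELESS and SAMHD1 were chosen after their values had been seen.

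Genes that set the cell cycle context of replication ranged in log2 fold change from −0.59 for MKI67 to 0.83 for CDKN1A over 11 genes. CDKN1A, which encodes p21, an inhibitor of cyclin-dependent kinases that also binds PCNA, was at 4.20, 3.6 and 3.40 FPKM in shNC and rose to 9.37, 7.12 and 5.97 FPKM in shACAT2 (SE 0.16, limma adjusted p = 0.0343; up to 0.153 with a library left out). MKI67, a marker of cycling cells, was at 29, 41.4 and 41.1 against 15.2, 32.6 and 27.8 FPKM, with overlap (limma adjusted p = 0.27; 0.0493 with the replicate block). E2F1, a driver of the G1/S wave, was at 39.9, 33.4 and 34.3 against 49.3, 37.3 and 30.7 FPKM, a log2 fold change of 0.10 (limma adjusted p = 0.785). CCNE2, the G1/S cyclin E2, was at 1.96, 2.65 and 2.37 against 1.68, 2.50 and 2.49 FPKM, a log2 fold change of −0.05 (limma adjusted p = 0.865). CCNE1, cyclin E1, named after its values were seen, was at 4.05, 2.88 and 3.00 against 5.60, 3.52 and 4.13 FPKM, with overlap, higher in each replicate pair, and a log2 fold change of 0.32 (limma adjusted p = 0.308; 0.0543 with the replicate block).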

How the data were processed

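RNA from HGC-27 cells was sequenced as 6 libraries. The submitters' processing notes name the build hg38 and the tools HISAT2 2.0.5 (an aligner), featureCounts 1.5.0-p3 (a read counter) and DESeq2 1.20.0, without their settings. The authors deposited FPKM per gene and library. Gene coordinates and exon lengths equalled GENCODE release 29 for 58724 of 58735 genes. Multiplying FPKM by exon length gave whole fragments (tolerance 0.01) for 100% of values, on a denominator of 0.957 to 1.07 times the library's fragments. Totals of 14086416 to 16067486 fragments limit precision, and cover counting error only.

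Genes whose average in shNC or shACAT2 reached 1 FPKM were tested on log2(FPKM + 1), a scale that understates the changes of low genes, in limma 3.58.1 (R 4.3.3, trended empirical Bayes), with Benjamini-Hochberg adjustment over all of them and calls at an adjusted p below 0.05. The code was tested on simulated data. Single values were also compared by an exact two-sided permutation test. Other settings tried were scaling to the upper quartile or to library size, no filter, 10 fragments in every library, a pseudocount of 0.1 FPKM, a replicate block, each library left out, shNC-2 and shNC-3 averaged, and limma-voom on recovered fragments.

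Deviations from group means correlated at 0.44, 0.13 and 0.17 between libraries numbered 1, 2 and 3, each above 0.1, and the replicate number was read as a pairing. This rests on the data, since the labels do not say what a number shares, and shNC-2 correlated more with shACAT2-3 (0.20) than with shACAT2-2.

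Values were given for ACAT2, for replication genes with an adjusted p below 0.05 and for 13 genes chosen by role. They were also given for the lowest and highest log2 fold change of each complex and for called genes of the other lists. Of the context genes, MKI67, CCNE2 and E2F1 were given by name. Library values of MCM3, POLA2, PRIM1, POLE2 and ATAD2 were added outside this rule, after they had been seen. The replication genes, the lists and this rule were chosen with earlier results of these data known. Promoters came from RefSeq.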

Additional observations from a re-analysis of the deposited data

How the results depend on the processing

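The count of calls over all genes, 706, was 209 with no filter, 1727 with the replicate block, 83 with a mean of shNC-2 and shNC-3 in their place, 1155 in limma-voom (10 or more fragments in 3 libraries), and 63 (without shNC-3) to 862 (without shACAT2-1) with a library left out. The 2 called replication genes became 4 with upper-quartile scaling (MCM2, MCM7, PCNA, POLE), 5 with the replicate block and 4 without shACAT2-1 (MCM7, PCNA, POLD1, POLE), 1 (PCNA) without shACAT2-3, and 0 in limma with no filter (11 at an unadjusted p under 0.05), in the averaged fit (3), and on leaving out shACAT2-2 (5), shNC-3 (4), shNC-2 (3) or shNC-1 (6). limma-voom called PCNA and POLE. In the averaged fit the adjusted p was 0.13 for PCNA and 0.158 for POLE, and with no filter 0.0646 and 0.0899. The 2 calls among the other replication genes became 6 with upper-quartile and with library-size scaling, 11 with the block, 1 with no filter (TIMELESS), and 0 in the averaged fit (8 at an unadjusted p under 0.05 in limma). With a library left out they were 0 to 5, at 0 on leaving out shACAT2-2 (11 unadjusted), shNC-3 (8), shNC-2 (8) or shNC-1 (12). The ACAT2 log2 fold change stayed between −1.07 and −0.94 with a library left out and had an adjusted p of 0.0512 without shNC-3.

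The median log2 fold change of the 51 genes, −0.13, was −0.19 with upper-quartile and −0.18 with library-size scaling, where the median of all genes was −0.03, was −0.15 in the averaged fit, and ranged from −0.15 to −0.10 with a library left out. Signs reversed with upper-quartile scaling for MCM4 (−0.046), MCM6 (−0.0093), ORC6 (−0.0036), GINS1 (−0.031), RFC2 (−0.038) and TYMS (−0.011), with library-size scaling for MCM4 (−0.040), MCM6 (−0.0031), GINS1 (−0.025), RFC2 (−0.031) and TYMS (−0.0046), and in the averaged fit for MCM4 (−0.021), GINS1 (−0.011) and RFC2 (−0.0063). With a library left out the sign changed in MCM4 (−0.029 to 0.079), MCM5 (−0.045 to 0.24), MCM8 (−0.25 to 0.074), ORC6 (−0.014 to 0.10), GMNN (−0.076 to 0.037), GINS1 (−0.033 to 0.10), GINS3 (−0.11 to 0.0015), CDC7 (−0.010 to 0.24), DBF4 (−0.084 to 0.22), RFC2 (−0.11 to 0.13), POLD2 (−0.077 to 0.18), RPA1 (−0.078 to 0.036), RRM1 (−0.078 to 0.0090), TYMS (−0.12 to 0.22) and CHAF1B (−0.20 to 0.0066). The cause was not tested. The replicate block changed no other call among the replication genes than MCM2, LIG1 and RFC1. Differences of the size of most replication genes lie near the spread of 3 libraries a group, and a gene that did not pass is not shown to be equal.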
